A study of Rattus norvegicus with 20 samples.

Results

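The comparison concerned PMX53, an antagonist of the C5a receptor C5ar1, given to young rats in which spasms were triggered. Group BYP (spasms, PMX53) was set against group BYS (spasms, saline), with 4 samples in each group and 8 of the 20 samples of the series in all. The samples were assigned by the condition letters of their labels, and no measured value entered the choice. All 8 samples were RNA of the hypothalamic arcuate nucleus of female Sprague-Dawley rats on postnatal day 15. All had been exposed before birth to betamethasone, a synthetic glucocorticoid, at 0.4 mg/kg per injection to the mother on gestational day 15. All had received NMDA, an agonist of glutamate receptors that triggers the spasms, on postnatal days 12, 13 and 15. Per the labels, PMX53 or saline was given on postnatal days 13, 14 and 15. The untreated controls of this comparison therefore carried betamethasone, NMDA and spasms too, and differed from the BYP rats by the drug alone as far as the labels say. The other 12 samples had no spasms (SNS, saline before birth, and BNS, betamethasone before birth, 4 each) or had spasms and ACTH (BYA, 4), and entered the fit and serve below as reference levels. Litters were reduced to females, and the labels do not say which pups were littermates, so the p-values measure the spread between these samples.

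Complement is a cascade of plasma and tissue proteins of innate immunity. Cleavage of C5 releases the peptide C5a, which acts on C5ar1, a G protein-coupled receptor of myeloid cells that microglia also carry, and signalling through it can raise the output of cytokines and chemokines. A second C5a-binding receptor is C5ar2, and C3ar1 binds the related peptide C3a. Seizures induce immediate early genes in neurons and chemokine genes in glia, and stress induces glucocorticoids and their target genes. The arcuate nucleus holds neuroendocrine neurons, among them dopamine neurons that express tyrosine hydroxylase.

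Gene expression was read from 2-colour arrays on which each dye channel held 1 rat. Replicates 1 and 2 of a group shared 1 array and replicates 3 and 4 another, the odd replicates in Cy3 and the even ones in Cy5. Both BYP arrays were on 1 slide and both BYS arrays on another, so slide and drug cannot be told apart. Signals were dimmer in BYP. Between 61.6% and 75.2% of spots were well above background in the BYP samples and between 72.8% and 84.5% in the BYS samples, and the median signal over background was 7.07 to 10.9 times in BYP and 14.0 to 19.8 times in BYS, with no overlap. Levels below are log2 intensities after normexp background correction and quantile normalization over the 20 channels, averaged over the probes of a gene that had a value in every sample, and a difference of 1 is a doubling. The number of arrays limits the precision. Over all 17074 genes tested, the root mean square difference between samples on the same array was 0.310, that between the arrays of a group 0.369 and that between the groups 0.371 (means over pairs). The distance between the groups was thus about that between the arrays of a group.

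The arrays of BYS did not carry the same signal. The log2 level of Ccl3, a chemokine that draws myeloid cells, was 7.79 and 7.91 in BYS replicates 1 and 2 and 12.04 and 12.08 in replicates 3 and 4. The 8 samples without spasms lay between 7.43 and 7.81. BYS replicates 1 and 2, although labelled as having had spasms, therefore stood at or just above the levels without spasms for this gene, and the other BYS samples did not. Fos, the immediate early gene most used as a mark of recent neuronal activity, was 8.86 and 9.16 in BYS replicates 1 and 2 and 11.04 and 10.47 in replicates 3 and 4, against 8.41 to 9.44 without spasms. Of 26 immediate early genes, 8 (30.8%) were more than 1 log2 unit higher in replicates 3 and 4 than in replicates 1 and 2, and none was as much lower. Of 36 cytokine and NF-kB genes, 7 (19.4%) were, and of 22 glucocorticoid-response genes, 5 (22.7%). Over all genes with values in all 4 samples, 0.599% were that much higher and 0.135% that much lower. Ccl3 and Fos were chosen after their values were seen. Where leaving out either BYS array gained or lost a call among the genes named below, or turned a difference, the value without that array is given too. The split by BYS array was likewise made after these values were seen. A call gained without 1 array therefore describes that split and is no separate test. The BYS samples left in such a fit share 1 array.

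Of the 17074 genes tested, limma called 6 between BYP and BYS at a Benjamini-Hochberg adjusted p under 0.05, which is 0.0351% of them, of which 2 rose and 4 fell with PMX53. There were 1455 genes at an unadjusted p under 0.05 (8.52%), 668 of them higher (3.91%) and 787 lower (4.61%). In 799 genes (4.68%) the BYP and BYS values did not overlap, in 434 of them with BYP higher (2.54%) and in 365 with BYP lower (2.14%). A version of the methods' combined criterion called 1098 genes (6.43%). It joins a fold threshold with a p not adjusted over genes. The threshold was set by the spread between replicates, without the methods' separate term for technical noise. The smallest p that an exact 2-sided permutation of 4 against 4 samples allows is 0.0286. The count of calls depended on the scaling of the channels. With the channels brought to a common median, limma called 2850 genes, 2030 higher and 820 lower, and the median log2 difference over all genes moved from 0.00 to -0.17, and with a common 75th percentile it called 0, with a median of 0.33 and 7056 genes at an unadjusted p under 0.05. Without BYS replicates 1 and 2 it called 16 genes (0.0938%, 10 higher and 6 lower), 3 of them among the 6, and without BYS replicates 3 and 4 it called 66 (0.387%, 55 higher and 11 lower), including all 6. Without BYP replicates 1 and 2 it called 145 (16 higher) and without BYP replicates 3 and 4 it called 165 (27 higher), including all 6 each time. With 1 array left to a group, the spread of that group is taken from the others. With the array as a random block, which allows for rats of 1 array being alike (estimated correlation 0.366), 1 of the 6 calls remained, A_64_P143316, and a fit of the 8 samples alone called 0 genes by limma, with 1323 at an unadjusted p under 0.05.

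**Figure D1:**
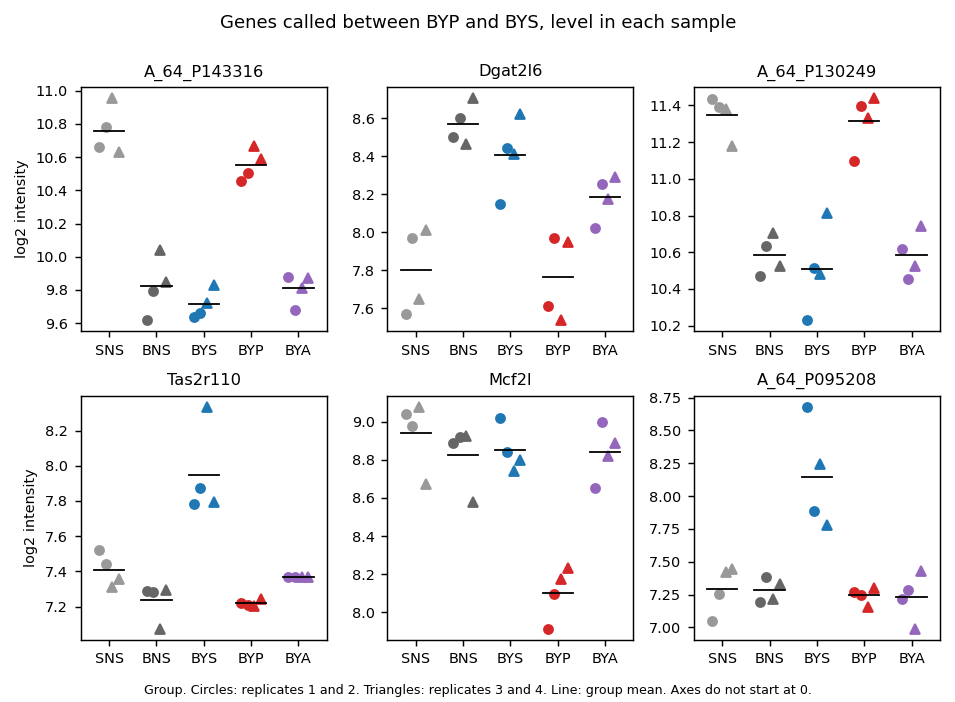
Log2 intensity (y axes, not starting at 0) of the 6 called genes in each of the 20 samples by group: SNS and BNS without spasms, BYS spasms and saline, BYP spasms and PMX53, BYA spasms and ACTH. Circles are replicates 1 and 2, triangles replicates 3 and 4, lines group means, and in each of the 6 panels the 4 BYP values lie all on the same side of the 4 BYS values.

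Of the 6 called genes, 3 are probes to which neither the array's design nor the reference gives a gene, so their 60-base sequences are shown, since these are all that identifies them. They are written 5′ to 3′ in lower case, with no part marked, and their positions are those of the array design on the rat build rn4, where no annotation was at hand to place them in an exon, an intron or a UTR.
A_64_P143316, chr3:86417659-86417718, plus strand: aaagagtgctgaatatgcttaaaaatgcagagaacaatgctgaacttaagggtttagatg
A_64_P130249, chr1:172181399-172181458, minus strand: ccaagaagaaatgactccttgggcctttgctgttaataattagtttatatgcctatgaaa
A_64_P095208, chr13:29214449-29214508, plus strand: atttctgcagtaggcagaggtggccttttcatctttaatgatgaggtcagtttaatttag

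Both genes that rose with PMX53 are in this set, and both were well above background in all 8 samples. A_64_P143316 was at log2 levels of 10.45, 10.50, 10.67 and 10.59 in BYP and 9.64, 9.66, 9.72 and 9.83 in BYS. Each BYP value was higher than every BYS value, and the spread within either group was small beside the gap. The log2 difference was 0.84 (standard error, SE, 0.10, limma adjusted p = 0.00185), a fold of 1.79. A_64_P130249 was at 11.10, 11.40, 11.33 and 11.44 in BYP and 10.23, 10.51, 10.48 and 10.81 in BYS. Its groups did not overlap either, with a log2 difference of 0.81 (SE 0.11, limma adjusted p = 0.00619). Both probes had their BYP level also in SNS, the group without betamethasone (10.63 to 10.95 and 11.18 to 11.44), and their BYS level in BNS and BYA, where A_64_P143316 lay between 9.62 and 10.04. Both remained called without any 1 of the 8 samples. Without BYS replicates 1 and 2, A_64_P143316 remained called (log2 difference 0.78, limma adjusted p = 0.0216) and A_64_P130249 did not (0.67, limma adjusted p = 0.0717).

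Of the 4 genes that fell with PMX53, 3 were dim in BYP and rested on 1 probe each, as did both genes that rose. Dgat2l6, a member of the diacylglycerol acyltransferase family (1 probe on rn4 chromosome X, chrX:88534208-88534267), was at 7.61, 7.97, 7.54 and 7.95 in BYP and 8.15, 8.44, 8.41 and 8.62 in BYS. No values overlapped, and it was well above background in 4 BYS but only 2 BYP samples. Like both higher probes it had its BYP level in SNS (7.57 to 8.01) and was nearer its BYS level in BNS (8.47 to 8.71). Unlike theirs, its BYA values (8.02 to 8.29) reached below the BYS range. The median signal over background was 5.42 to 11.4 times in SNS, 6.55 to 10.5 in BYA and 14.1 to 19.9 in BNS. Whether the level of this dim gene followed that brightness was not tested. The log2 difference of Dgat2l6 between BYP and BYS was -0.64 (SE 0.08, limma adjusted p = 0.00397). Tas2r110, a bitter taste receptor gene (chr4:170197336-170197395), was at 7.22, 7.21, 7.20 and 7.24 in BYP, where it was not well above background in any sample, and at 7.78, 7.87, 8.33 and 7.80 in BYS, where it was in all 4. With BYP values raised to a floor, the lowest signal that was well above background in each channel, it was 1.47-fold higher in BYS (limma adjusted p = 0.00726). Genes not well above background can lie above that floor, so such a fold is no strict lower bound. A_64_P095208 was likewise not well above background in any BYP sample (7.27, 7.25, 7.16 and 7.30). In BYS it was at 8.68, 7.89, 8.24 and 7.78, 1.69-fold higher against the same floor (limma adjusted p = 0.043). It kept its call without 3 of the 8 samples, and lost it without any of the others, up to an adjusted p of 0.177 without BYS replicate 3. In SNS, BNS and BYA, Tas2r110 lay between 7.07 and 7.52 and A_64_P095208 between 6.99 and 7.44, below every BYS value. To enter the test, a gene needed full detection in 1 or more of the 5 groups, which meant all 4 samples of that group well above background. Tas2r110 and A_64_P095208 met this in BYS alone, so that a lower level in the other groups was built into the choice of genes, and Dgat2l6 met it in BYS and BNS but not in BYP. Among probes well above background in all 8 samples, limma called the same 2 higher genes and 0 lower ones, with 1066 genes at an unadjusted p under 0.05, 604 of them higher. A_64_P095208 had an adjusted p of 0.0612 without BYS replicates 1 and 2. The 3 dim genes turned to positive differences under both other scalings, with the channels brought to a common median (0.07 for Dgat2l6, 0.47 for Tas2r110 and 0.20 for A_64_P095208) or a common 75th percentile (0.57, 0.97 and 0.70), none of them called, and they lay above the median of all genes by 0.25, 0.64 and 0.37 under either scaling.

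Mcf2l, which encodes an exchange factor for small GTPases and was well above background in all 20 samples by at least 1 of its probes, fell by 0.75 on the log2 scale as the mean of 3 probes on rn4 chromosome 16 (SE 0.11, limma adjusted p = 0.0139). Its levels were 7.92, 8.09, 8.17 and 8.23 in BYP and 9.02, 8.84, 8.74 and 8.80 in BYS. The probes disagreed. A_44_P531611 was at 7.25 and 7.81 in BYP replicates 1 and 2 but at 10.09 and 9.69 in replicates 3 and 4, against 9.69 to 10.66 in BYS. A_64_P330812 was the reverse, at 8.10 and 7.98 in BYP replicates 1 and 2 and 6.15 and 6.80 in replicates 3 and 4, against 7.99 to 8.33 in BYS. A_64_P061786, the only probe well above background in all 8 samples, differed by 0.13 (SE 0.12). None of the 3 probes was called on its own, with limma adjusted p-values of 0.459 for A_64_P330812, 0.378 for A_44_P531611 and 0.854 for A_64_P061786. The gene also lost its call without BYS replicate 1 (adjusted p = 0.0836), without 2 others of the 8 samples and without the array of BYS replicates 1 and 2 (-0.67, adjusted p = 0.143).

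C5ar1, the receptor that PMX53 blocks, did not separate the groups. PMX53 acts on the protein, so the level of C5ar1 RNA checks neither the dose nor the label. Its log2 level was 7.74, 7.80, 7.79 and 8.00 in BYP and 7.72, 7.81, 7.96 and 7.78 in BYS. The values overlapped over nearly their whole range, with a log2 difference of 0.02 (SE 0.13, limma adjusted p = 0.989; exact permutation test, 2-sided, p = 0.771). It was near the limit of detection, well above background in 4 BYS and 2 BYP samples, and entered the test through BYS alone. Its means in the other groups were 7.82 ± 0.26 (SD, n = 4) in SNS, 7.69 ± 0.09 in BNS and 7.67 ± 0.26 in BYA. The difference of C5ar1 changed sign with 6 of 28 alternatives and was called under 1 of them, the scaling of the channels to a common median (adjusted p = 0.0484), under which the dim genes moved together. The probe of C5ar2 was well above background in 0 of 20 samples, that of C5 in 10 and that of C3ar1 in 7, and none of these was tested.

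The differences of the complement genes lay on both sides of 0. Of 24 members tested, limma called 0, 3 were lower (12.5%) and 0 higher at an unadjusted p under 0.05, beside 4.61% and 3.91% of all genes. The median log2 difference was -0.01 beside 0.00 over all genes, 11 differences were positive, and in 0 members did the groups separate. Full detection in BYP was lacking in 4 of the 24 members, 0 of them among the 3 lower ones. The counts of members at an unadjusted p under 0.05 were small and changed with the BYS array. The list median stayed near 0, at -0.07 without BYS replicates 1 and 2 and 0.03 without replicates 3 and 4. Without BYS replicates 1 and 2, 0 members were higher and 3 lower, beside 2.5% and 2.66% of all genes in that fit. Without BYS replicates 3 and 4, 2 members were higher and 0 lower, beside 4.77% and 4.6%. C1qa, a chain of the recognition molecule of the classical pathway, was at 12.41 to 12.66 in BYP and at 12.38 to 12.87 in BYS. The difference was -0.24, and 1 BYS value lay below all those of BYP. Cfp, which stabilises the alternative C3 convertase, differed by -0.30. None of the 17 genes of C5a receptor signalling, the G protein, kinase and phospholipase genes downstream of the receptor, passed an unadjusted p under 0.05 in either direction.

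Chemokine and cytokine genes stood higher in BYP than in BYS as a mean, and by how much depended on the BYS array. Of 36 members tested, limma called 0, 7 were higher and 0 lower at an unadjusted p under 0.05 beside 3.91% and 4.61% of all genes, 28 differences were positive, and the median log2 difference was 0.16. The filter on dim genes bears on this count, since 3 members passed it through BYP alone, 2 of them among the 7 higher. Ccl3 was at 12.48, 12.69, 13.37 and 11.63 in BYP. These lay above BYS replicates 1 and 2 by over 3 log2 units and around replicates 3 and 4. With all 8 samples the log2 difference was 2.59 (SE 0.80, limma adjusted p = 0.383). Without BYS replicates 3 and 4 it was 4.70 (limma adjusted p = 0.000488), and without BYS replicates 1 and 2 it was 0.48 (adjusted p = 0.9999). BYA ranged from 9.99 to 12.47.

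Ccl4, a chemokine of the same family that passed the filter on dim genes through BYP alone, was at 10.38, 10.50, 10.82 and 9.68 in BYP and 7.53, 7.33, 9.60 and 9.67 in BYS. It was the single member of the chemokines named here whose groups did not overlap, with BYP replicate 4 and BYS replicate 4 nearly level. The log2 difference was 1.81 (SE 0.47, limma adjusted p = 0.254), and 0.71 without BYS replicates 1 and 2 (adjusted p = 0.99) but 2.91 without replicates 3 and 4 (adjusted p = 0.00201). Cxcl10, an interferon-induced chemokine for lymphocytes, was at 8.85, 9.99, 11.11 and 8.60 in BYP and 7.93, 7.69, 9.10 and 8.40 in BYS. Its difference of 1.36 (SE 0.40, limma adjusted p = 0.38) kept its sign without BYS replicates 1 and 2 (0.89, adjusted p = 0.99). BYA ranged from 7.41 to 8.27 and the samples without spasms from 7.24 to 7.76, all below the lowest BYP value. Icam1, an adhesion molecule for leukocytes, was at 10.41, 10.60, 11.76 and 10.01 in BYP and 8.49, 8.22, 10.68 and 10.39 in BYS. Its difference of 1.25 became 0.16 without BYS replicates 1 and 2 and 2.34 without replicates 3 and 4 (limma adjusted p = 0.00768). Tnf, named here after its values were seen, had a difference of 0.81 with all samples. It was -0.16 without BYS replicates 1 and 2 and 1.77 without replicates 3 and 4 (limma adjusted p = 0.088). Without BYS replicates 1 and 2 the median over the 36 genes was 0.04, with 0 members higher and 1 lower at an unadjusted p under 0.05, beside 2.5% and 2.66% of all genes in that fit. Without BYS replicates 3 and 4 it was 0.21, with 15 higher, 0 lower and 3 called (Ccl3, Ccl4 and Icam1), beside 4.77% higher, 4.6% lower and 0.387% called of all genes.

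**Figure D2:**
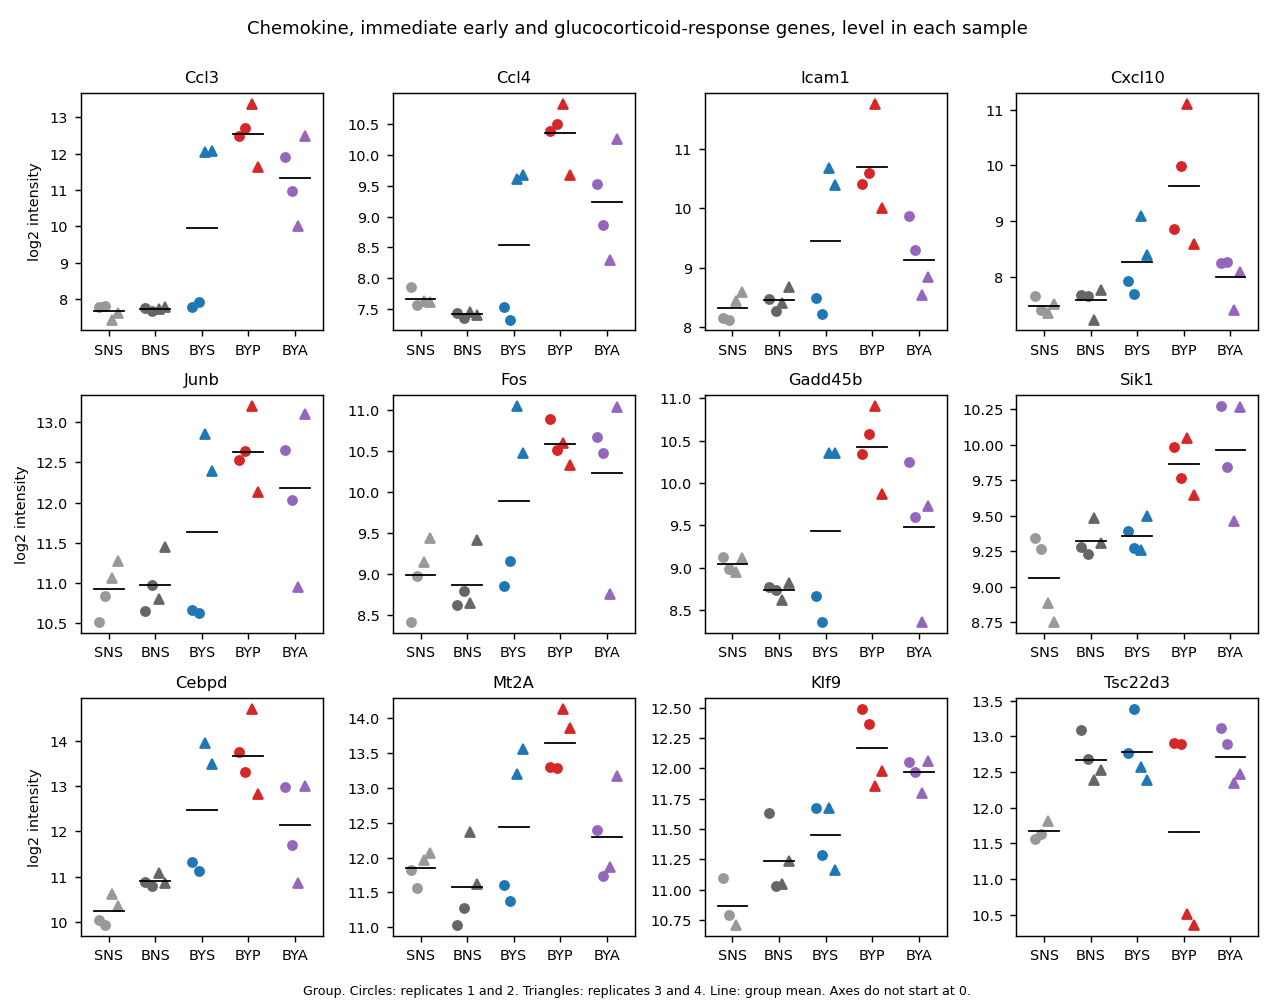
Log2 intensity (y axes, not starting at 0) of 12 chemokine, immediate early and glucocorticoid-response genes in each sample of the 5 groups. Circles are replicates 1 and 2, triangles replicates 3 and 4, lines group means, and for Ccl3, Ccl4, Icam1, Junb, Fos, Gadd45b, Cebpd and Mt2A the blue BYS circles lie near the grey samples without spasms and the blue triangles near the red BYP samples.

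The immediate early genes had the highest median difference of the lists, 0.33 over 26 members, with 4 members higher and 0 lower at an unadjusted p under 0.05, beside 3.91% and 4.61% of all genes, and 0 called. Without BYS replicates 1 and 2 it was -0.03, with 1 member higher and 1 lower, beside 2.5% and 2.66% of all genes in that fit. Without BYS replicates 3 and 4 it was 0.52, with 12 higher and 3 called (Fosl1, Gadd45b and Egr4), beside 4.77% higher and 0.387% called of all genes. Egr4 differed by 1.77 in that fit (limma adjusted p = 0.0477) and by -0.25 without BYS replicates 1 and 2. Junb, a subunit of the AP-1 transcription factor, was at 12.53, 12.64, 13.20 and 12.13 in BYP and 10.66, 10.62, 12.85 and 12.40 in BYS. The BYP values lay within reach of the higher BYS array, and the difference of 0.99 (limma adjusted p = 0.581) was -0.0012 without the lower one. Gadd45b, a stress-induced gene of DNA demethylation and repair, had the same shape, at 9.87 to 10.91 in BYP and 8.66, 8.36, 10.35 and 10.35 in BYS, with a difference of 0.99 that became 0.07 without the lower BYS array and 1.92 without the higher one (limma adjusted p = 0.024). Ier2 differed by 0.57, and by 0.11 without BYS replicates 1 and 2. Sik1, a kinase that cAMP signalling induces, was different. It was at 9.98, 9.77, 10.05 and 9.65 in BYP and 9.39, 9.28, 9.26 and 9.50 in BYS. The groups did not overlap, and its log2 difference of 0.51 (SE 0.17, limma adjusted p = 0.393) was 0.48 without BYS replicates 1 and 2 and 0.53 without replicates 3 and 4.

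Of 22 genes of the glucocorticoid response tested, limma called 0, and 5 were higher (22.7%) and 1 lower (4.55%) at an unadjusted p under 0.05. Of all genes, 3.91% were higher and 4.61% lower. The median log2 difference of the list was 0.17. Klf9, a transcription factor that glucocorticoids induce, was at 12.49, 12.36, 11.86 and 11.98 in BYP and 11.67, 11.29, 11.68 and 11.16 in BYS. Each BYP value was above every BYS value. The log2 difference was 0.73 (SE 0.16, limma adjusted p = 0.177), 0.76 without BYS replicates 1 and 2 and 0.70 without replicates 3 and 4, and 0.98 without BYP replicates 3 and 4, where it was called (adjusted p = 0.00774). BYA, the group given ACTH, was at 11.80 to 12.06, also above every BYS value. The metallothioneins, which bind zinc and copper and are induced by glucocorticoids and metals, followed the BYS arrays. Mt2A was at 13.29, 13.29, 14.13 and 13.85 in BYP and 11.60, 11.38, 13.19 and 13.55 in BYS, a difference of 1.21 that became 0.27 without BYS replicates 1 and 2 and 2.15 without replicates 3 and 4 (limma adjusted p = 0.0168). Mt1 differed by 0.92, by 0.00 without the former and by 1.83 without the latter (adjusted p = 0.0066). Tsc22d3, which encodes the glucocorticoid-induced leucine zipper, split the BYP arrays instead. It was at 12.90 and 12.89 in BYP replicates 1 and 2, at 10.51 and 10.36 in replicates 3 and 4, and at 12.39 to 13.39 in BYS. Its log2 difference was -1.11 (SE 0.47, limma adjusted p = 0.529), 0.12 without BYP replicates 3 and 4 and -2.34 without replicates 1 and 2, where it was called (adjusted p = 0.000146). Without BYS replicates 1 and 2 the median over the list was 0.05, and without replicates 3 and 4 it was 0.23, with 9 members higher, 1 lower and 4 called (Mt1, Mt2A, Cebpd and Cdkn1a), beside 4.77%, 4.6% and 0.387% of all genes. Cdkn1a differed by 1.40 without BYS replicates 3 and 4 (limma adjusted p = 0.00201) and by -0.20 without replicates 1 and 2.

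**Figure D3:**
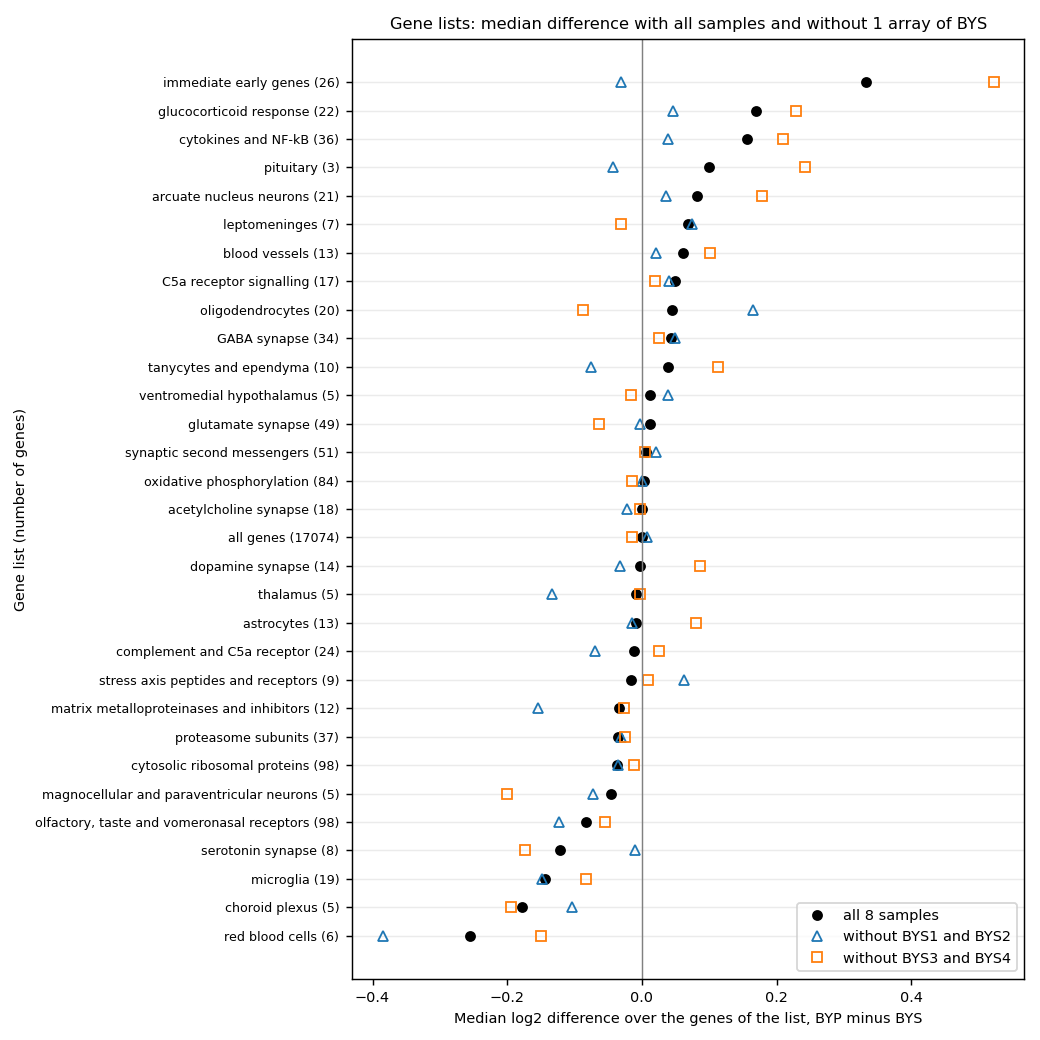
Median log2 difference, BYP minus BYS (x axis), over the genes of each list (y axis, number of genes in parentheses), with all samples (dots), without BYS replicates 1 and 2 (triangles) and without BYS replicates 3 and 4 (squares). The dots of the immediate early (0.33), glucocorticoid-response (0.17) and cytokine (0.16) lists lie highest, and their triangles lie at -0.03, 0.05 and 0.04.

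Genes of synaptic transmission were the subject of the study. Of all genes, 3.91% were higher and 4.61% lower at an unadjusted p under 0.05. Of 34 GABA genes tested, limma called 0, and 2 were lower (5.88%) and 0 higher at an unadjusted p under 0.05, with a median log2 difference of 0.04. Gabra3, a subunit of GABA-A receptors, was at 8.39 to 8.54 in BYP and 8.66 to 8.98 in BYS, without overlap, a difference of -0.30 that turned to 0.45 with the channels brought to a common 75th percentile, which is 0.12 above the median of all genes. Of 49 glutamate genes, 3 were higher (6.12%) and 1 lower (2.04%), with a median of 0.01. The lower one passed the filter on dim genes through BYS alone, so that a lower BYP level was built into its entry. Grin2d, an NMDA receptor subunit, was at 14.82, 14.91, 15.31 and 14.73 in BYP and 14.60, 13.20, 14.08 and 14.39 in BYS, a difference of 0.88 (SE 0.27, limma adjusted p = 0.383). Every BYP value was above every BYS value. Slc38a1, a glutamine transporter of neurons, differed by 0.74 and overlapped. It differed by 0.35 without BYS replicates 1 and 2, and without replicates 3 and 4 by 1.12, where it was called (limma adjusted p = 0.012). Homer2, a scaffold of postsynaptic glutamate receptors, differed by 0.58.

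Of 18 acetylcholine genes, 0 were called, and 3 were lower (16.7%) and 0 higher at an unadjusted p under 0.05. Of all genes, 4.61% were lower and 3.91% higher. Among the 18, 7 did not pass the filter on dim genes through BYP, and these included 1 of the 3 lower ones. Ache, which hydrolyses acetylcholine, was at 13.11, 12.19 and 11.17 in BYP, with no value in replicate 2 because its spots were marked as outliers, and at 12.41 to 13.13 in BYS. The fit on the 3 remaining BYP values gave -0.69 (SE 0.27, limma adjusted p = 0.472). It rested on the array of BYP replicates 3 and 4, being -1.11 without BYP replicate 1 (limma adjusted p = 0.0433, a call) and 0.24 without replicates 3 and 4. Slc5a7, the choline transporter of cholinergic terminals, differed by -0.42. Of 14 dopamine genes, 1 was higher and 1 lower (7.14% each). Th, the rate-limiting enzyme of dopamine synthesis, was at 12.54, 12.92, 12.88 and 12.23 in BYP and 11.88, 12.07, 12.24 and 12.31 in BYS, overlapping, with a log2 difference of 0.52 (SE 0.19, limma adjusted p = 0.456). Slc18a2, the vesicular monoamine transporter, was at 10.86, 11.43, 10.16 and 11.47 in BYP and 11.55, 11.53, 11.80 and 12.20 in BYS. All its BYP values were lower than those of BYS, a difference of -0.79 (SE 0.28, limma adjusted p = 0.431). Of 8 serotonin genes, 1 was lower (12.5%), the receptor gene Htr2c (-0.37), and all 8 differences were negative. The median of these 8 turned from -0.12 to 0.49 with the channels brought to a common median, 0.66 above that of all genes, and 4 of them passed the filter on dim genes through BYS alone. Of 51 genes of synaptic second messengers, 2 were higher (3.92%) and 4 lower (7.84%). Among them were Gng3 (-0.46) and Gnai1 (-0.72), G protein subunits, and Atf4 (0.27), a stress-responsive transcription factor. Without BYP replicates 1 and 2, limma called Gng3 (-0.70, adjusted p = 0.0202) and Gnai1 (-1.28, adjusted p = 0.0422), and Gng3 also without BYP replicate 1 alone (-0.71, adjusted p = 0.0296). Gnai1 was well above background in 3 BYP samples. It passed the filter on dim genes through BYS and BNS but not through BYP, which favours a lower BYP level.

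The 10 largest differences in each direction, among the 177 genes with a known symbol, no overlap, an unadjusted p under 0.05 and signal well above background in all 8 samples, belonged to no single list. Apart from Mcf2l, limma called none of them, and their adjusted p-values began at 0.0964. Those higher in BYP included Uqcc6 (log2 difference 1.01), an assembly factor of respiratory complex III, Cox6c-ps1 (0.91), listed as a pseudogene of a subunit of cytochrome oxidase and so likely to share signal with its parent gene, Grin2d (0.88), Mb (0.73), which encodes myoglobin, Klf9 (0.73), Mrpl18 (0.62), of the mitochondrial ribosome, Calcr (0.54), the calcitonin receptor, Sult1a1 (0.54), a sulfotransferase, and Ripor3 (0.54). The BYP values of Mb were 9.97, 10.23, 10.04 and 10.09, against 9.69, 9.71, 8.82 and 9.17 in BYS. Those of Cox6c-ps1 were 11.03, 11.80, 11.18 and 11.45 against 10.27, 10.35, 10.57 and 10.61. In both genes the BYP arrays were at like levels. The BYS arrays of Mb were not, and its difference was 1.08 without BYS replicates 1 and 2, where limma called it (adjusted p = 0.0057), and 0.38 without replicates 3 and 4. Cox6c-ps1 was called without BYA replicate 3 in the fit (adjusted p = 0.0298).

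The lower genes were less even, and several were far lower on 1 BYP array than on the other. Pdia3, a disulfide isomerase of the endoplasmic reticulum, was at 10.03 and 10.14 in BYP replicates 1 and 2, at 11.36 and 11.35 in replicates 3 and 4, and at 11.64 to 12.26 in BYS (log2 difference -1.34, SE 0.26, limma adjusted p = 0.155). Cldnd1 (-1.04) was likewise lowest on the array of BYP replicates 1 and 2, at 8.54 and 9.58. Kcnd2 (-0.87), an A-type potassium channel of dendrites, was lowest on the other array, at 10.37 and 10.92 against 11.85 and 11.80 in replicates 1 and 2. So was Cd200 (-0.85), a neuronal ligand that restrains microglia, at 10.71 and 10.77 against 12.05 and 12.13. So was Psen2 (-0.84), a presenilin of the gamma-secretase complex, at 10.31 and 10.35 against 11.23 and 11.06. Pdcd10 (-1.01), a gene of vascular integrity, had the lowest adjusted p of those not called, 0.0964, at 12.19, 11.61, 10.86 and 11.27 in BYP and 12.32 to 12.70 in BYS. The rest were Ppp1r17 (-0.86), an inhibitor of phosphatase 2A, Fcrl2 (-0.79) and Slc18a2 (-0.79). Several of these values moved when a BYP array was left out. Without BYP replicates 1 and 2, limma called Cd200 (-1.53), Kcnd2 (-1.46), Pdcd10 (-1.43) and Psen2 (-1.25), and without replicates 3 and 4 it called Pdia3 (-1.97) and Cldnd1 (-1.74). Leaving out BYP replicate 1 alone was enough for Kcnd2 (-1.12), Pdcd10 (-1.28) and Psen2 (-1.02), and BYP replicate 3 or 4 alone for Pdia3 (-1.57 and -1.56). The probes of Kcnd2 differed, at -1.59 and -0.15. Over all genes, 108 were more than 1 log2 unit higher and 101 as much lower on the array of BYP replicates 3 and 4 than on that of replicates 1 and 2.

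**Figure D4:**
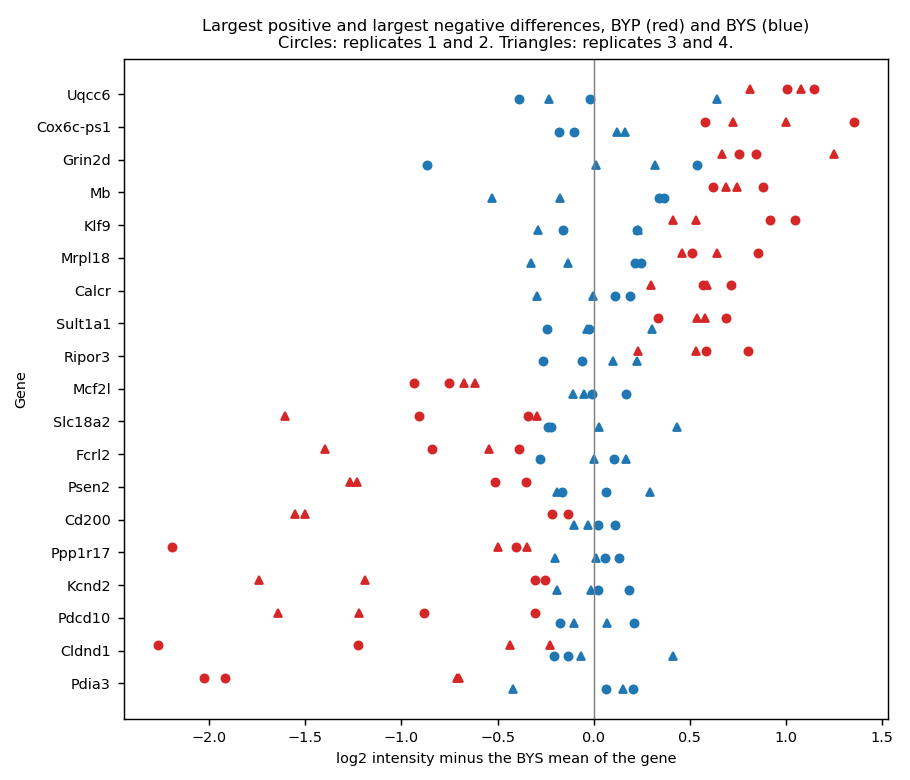
Log2 intensity of each BYP (red) and BYS (blue) sample minus the BYS mean of the gene (x axis) for 9 of the 10 largest positive and the 10 largest negative differences (y axis). Circles are replicates 1 and 2 and triangles replicates 3 and 4, and for Pdia3, Kcnd2, Cd200 and Psen2 the BYP samples of 1 array lie far to the left of those of the other.

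Timp3, an inhibitor of matrix metalloproteinases that was singled out because its level differed between spasm and no-spasm rats in earlier results of these data, was at 9.60, 9.31, 8.97 and 9.10 in BYP and 9.89, 9.10, 9.70 and 9.82 in BYS. The groups overlapped, with a log2 difference of -0.38 (SE 0.16, limma adjusted p = 0.509), and the samples without spasms lay between 8.51 and 9.10. Of the 12 metalloproteinase and inhibitor genes tested, 2 others passed an unadjusted p under 0.05, the membrane-type metalloproteinase genes Mmp15 (0.26) and Mmp24 (0.36). For this list and the next ones, the shares of all genes at an unadjusted p under 0.05 were 3.91% higher and 4.61% lower. Of 98 cytosolic ribosomal protein genes, 2 were higher and 3 lower, with a median of -0.04. Rps27 had the largest of these differences, -1.93, from a level of 11.27 and 13.07 in BYP replicates 1 and 2, while replicates 3 and 4 (15.74 and 15.64) stood with BYS (15.72 to 16.06). Its level is that of 1 of its 2 probes, since the other lacked a value in some sample, and that other probe differed by -0.06. Without BYP replicates 1 and 2 the difference was -0.17, and without replicates 3 and 4 it was -3.69 (limma adjusted p = 7.8e-07). Rps25 (0.44) and Rps3a (-0.29) did not overlap, and Rps25 was called without BYP replicate 1 (0.56, adjusted p = 0.0433). Of 84 oxidative phosphorylation genes, 5 were higher and 5 lower, among them Cox7c (0.48), a subunit of cytochrome oxidase, Uqcrc2 (-1.09), a core protein of complex III, and Ndufs8 (-0.46), a subunit of complex I. Uqcrc2 rested on 1 BYP array, being -0.05 without BYP replicates 1 and 2 and -2.14 without replicates 3 and 4, where it was called (limma adjusted p = 0.000948). Of 37 proteasome genes, 1 was higher, Psmd13 (0.43), and 3 were lower, Psmb7 (-0.66), Psmb5 (-0.23) and Psmd8 (-0.28). Psmd13 rested on BYS replicates 3 and 4, being 0.87 without the other BYS samples, where it was called (limma adjusted p = 0.0186), and -0.0066 without replicates 3 and 4. Ribosomal and cytochrome genes have near-identical copies in the rat genome, whose signal the probes may share. Of 98 olfactory, taste and vomeronasal receptor genes that were bright enough to test, out of 1402 on the array, 1 was called (Tas2r110), 2 were higher (2.04%) and 11 lower (11.2%) at an unadjusted p under 0.05, beside 3.91% and 4.61% of all genes. The filter on dim genes bears on this count, since 23 of the 98 were well above background in all 8 samples, 74 did not pass through BYP, among them all 11 lower genes, and 25 passed through BYS alone. The median of the list turned from -0.08 to 0.66 with the channels brought to a common median, 0.84 above that of all genes. Or13m2 and Or2n1j were well above background in all 4 BYS and in 0 BYP samples, and Or4x11 in 4 and 2. With BYP values raised to the floor used for Tas2r110, Or13m2 was 1.48-fold higher in BYS (limma adjusted p = 0.0614). Or2n1j was 1.27-fold higher (limma adjusted p = 0.173). Or13m2 passed the filter through BYS alone, and was called without BYP replicate 1 (-0.64, adjusted p = 0.0337) and without BYS replicates 3 and 4 (-0.74, adjusted p = 0.012), and the other two through BYS and BNS. The differences of these 3 were positive with the channels brought to a common median, like those of Tas2r110.

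In whole tissue, fewer cells of a type and less RNA per cell cannot be told apart. For every list in this paragraph, the shares of all genes at an unadjusted p under 0.05 were 3.91% higher and 4.61% lower. Of 19 microglia markers tested, 1 was higher and 2 lower at an unadjusted p under 0.05 and 0 were called, with a median of -0.14. Their mean level ranged from 10.08 to 10.54 in BYP and from 10.27 to 10.39 in BYS, overlapping. Cx3cr1, the fractalkine receptor of microglia, was at 10.98, 11.42, 11.34 and 11.61 in BYP and 10.44, 10.59, 10.55 and 11.33 in BYS, a log2 difference of 0.61 (SE 0.16, limma adjusted p = 0.258). It was 0.40 without BYS replicates 1 and 2 (adjusted p = 0.963) and 0.83 without replicates 3 and 4, where it was called (adjusted p = 0.0315). P2ry12, a purine receptor of resting microglia, went the other way, at 10.66, 10.14, 9.87 and 10.91 in BYP and 10.98, 11.17, 10.703 and 10.73 in BYS, a difference of -0.50 (SE 0.19, limma adjusted p = 0.471). P2ry13, its dimmer relative, differed by -0.53, was well above background in 2 BYP samples and passed the filter through BYS alone. Their part in the chemokine values was not tested. Of 6 red blood cell genes tested, 1 was lower, the alpha globin gene Hba-a1, at 14.98, 15.15, 15.00 and 15.18 in BYP and 15.56, 15.25, 15.82 and 15.46 in BYS, without overlap (log2 difference -0.44, limma adjusted p = 0.383), and all 6 differences were negative. Of 13 vessel markers, 1 was higher, Pecam1, an adhesion molecule of endothelium, at 9.998 to 10.37 in BYP and 9.71 to 9.86 in BYS (0.41, limma adjusted p = 0.318). Of 13 astrocyte markers, 1 was higher, the connexin gene Gjb6 (0.55), and of 20 oligodendrocyte markers 1 was higher and 1 lower. The lower one was Mbp, which encodes myelin basic protein, and its difference of -0.57 is that of 1 of its 2 probes, since the other (0.03) lacked a value in some sample. It was -0.12 without BYP replicates 1 and 2 and -1.02 without replicates 3 and 4 (limma adjusted p = 0.0306). Of 24 markers of arcuate neurons, the labelled tissue, 21 were bright enough to test and Lepr, Esr1 and Otp were not, with mean levels of 11.02 to 11.41 in BYP and 10.97 to 11.17 in BYS. Of the 21, 2 were higher (9.52%) and 0 lower at an unadjusted p under 0.05, with a median of 0.08. These were Th and Pgr, the progesterone receptor gene, which was at 7.99, 8.01, 8.54 and 8.81 in BYP and 7.93 to 8.13 in BYS, overlapping, and which passed the filter through BYS alone. Its difference of 0.34 was 0.0061 without BYP replicates 3 and 4 and 0.68 without replicates 1 and 2, where it was called (limma adjusted p = 0.0339). Of 5 markers of the ventromedial nucleus, which lies beside the arcuate, 1 was higher, Nr5a1, with a difference of 0.64 that was 0.26 without BYS replicates 1 and 2 and 1.02 without replicates 3 and 4. No marker of tanycytes, choroid plexus, leptomeninges, pituitary, thalamus or magnocellular neurons, and no gene of the stress axis, passed an unadjusted p under 0.05.

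**Figure D5:**
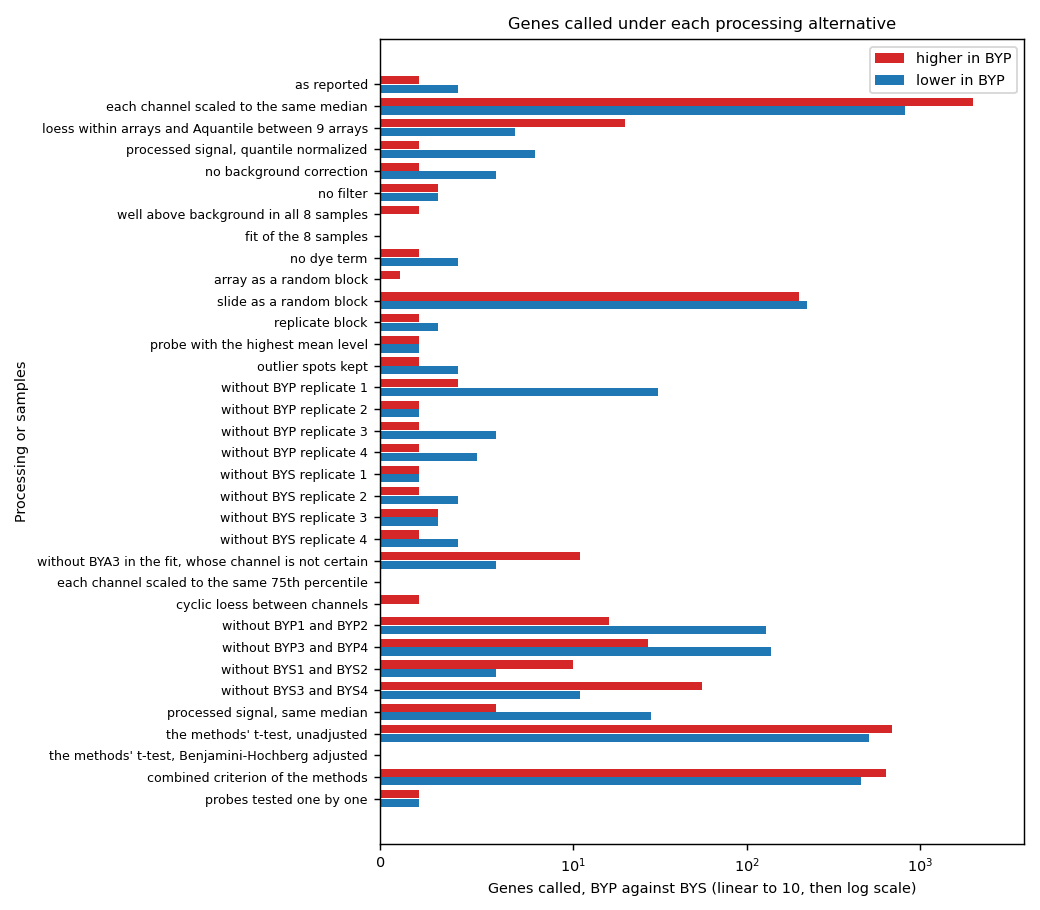
Number of genes called higher (red) and lower (blue) in BYP than in BYS (x axis, linear to 10 and logarithmic above) under each processing alternative or set of samples (y axis). The top bars are the 2 higher and 4 lower genes reported here, and the longest come from scaling the channels to a common median (2030 and 820).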

How the data were processed

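RNA of 20 samples was hybridised to 11 two-colour rat arrays on 6 slides. Per the file headers, the authors deposited spot intensities as the extraction software (Agilent Feature Extraction 11.5.1.1, given as 10.7.3.1 in the submitters' notes) wrote them, with mean signals and local backgrounds not yet corrected or normalized, and processed signals corrected and dye-normalized. The flag columns of the deposited files hold 0 or 1. 82 columns belong to samples of another series on 2 arrays and were not used. For BYA replicate 3 the label and the array's name disagree on the channel, and the label was used.

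Mean signals of 42877 spots were background-corrected (normexp, offset 50) and quantile normalized in limma 3.58.1 under R 4.3.3, outlier spots left out (1.18%). Spots were averaged to 30367 probes, of which 73.5% were named through the reference table by accession or symbol, and 19883 probes were kept that had at least 0.5 of their spots well above background in all 4 samples of a group. A gene's level is the mean of its probes with a value in all 20 samples, or 1 probe where none has. A model of group and dye was fitted to 17074 genes in all 20 samples (14 residual degrees of freedom), with Benjamini-Hochberg adjustment over all genes. The fit was tested on simulated data of 16292 genes without missing values, where it recovered 16 of 50 genes changed by 0.5 log2 units, 45 of 50 changed by 1 and all 50 changed by 1.5. Of its 171 calls there, 10 were genes left unchanged. The simulated spread was independent between channels. These counts therefore do not hold for data in which rats of 1 array are alike and slide and drug coincide.

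The genes named were every called gene, up to 10 in each direction of the largest differences with an unadjusted p under 0.05, no overlap, a known symbol and full detection, the receptors, and up to 4 members of a list by lowest p. Fos, Fosl1, Ccl2, Tnf, Cebpd and Spp1 were added after their values were seen. The members and gene lists were chosen with earlier results of these data known. Pathways were not tested as sets. Alternatives covered the signal, scaling, filter, dye and block terms, samples and the methods' t-test, and those that leave out a whole array, use the 75th percentile, cyclic loess or the processed signal at 1 median, or leave out BYA replicate 3 were chosen after seeing the data. Some genes that the rule takes are not reported here.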

Additional observations from a re-analysis of the deposited data

Results flagged for a closer look

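Of the genes named above, 7 had 1 value in a group of 4 that lay far from the other 3, by Dixon's gap over range. In all, 158 groups were checked, and chance flags about 1 in 20 such groups. Tas2r110 was at a log2 level of 8.33 in BYS replicate 3, with the next at 7.87. Ppp1r17 was at 8.72 in BYP replicate 1, with the next at 10.42, and so most of its mean difference came from that sample. C1qa was at 12.38 in BYS replicate 2, with the next at 12.82. Cx3cr1 was at 11.33 in BYS replicate 4, with the next at 10.59. Slc38a1 was at 9.76 in BYP replicate 3, with the next at 10.31, and Mmp15 was at 10.84 in BYP replicate 4, with the next at 11.11. Pgr was at 8.13 in BYS replicate 2, with the next at 7.96.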

How the results depend on the processing

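Against the 6 genes called, limma called 2850 with the channels brought to a common median (2030 higher), 27 with loess within and Aquantile between 9 arrays (20 higher), 10 with the processed signal and 34 with that signal at the same median, 2 with probes well above background in all 8 samples, 2 with cyclic loess, and 17 without BYA replicate 3. It called 0 in a fit of the 8 samples alone (1323 at an unadjusted p under 0.05) and 0 with a common 75th percentile (7056). The array as a random block left 1 call (A_64_P143316). The slide as a random block gave 423, with an estimated correlation of -0.128 that lowers the error of a difference between slides. Without 1 sample the count was 4 to 35, the highest without BYP replicate 1, and without an array it was 16 (BYS replicates 1 and 2), 66 (BYS replicates 3 and 4), 145 (BYP replicates 1 and 2) and 165 (BYP replicates 3 and 4). The methods' t-test called 1192 genes unadjusted and 0 after Benjamini-Hochberg adjustment, and the version of the methods' combined criterion without technical noise 1098. The replicate number as a block left 5 calls, all among the 6. Samples of the same number did not deviate together (correlations from -0.08 to 0.26), and 1 of 4 BYP samples correlated best with its own number, so they share only a number.

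The median over all genes moved to -0.17 under the median scaling and to 0.33 under the 75th percentile. Under the median scaling these log2 differences changed sign: A_64_P095208 0.20, Dgat2l6 0.074, Tas2r110 0.47, Or13m2 0.42, Or2n1j 0.71, Or4x11 0.49, P2ry13 0.22, Atf4 -0.29, Calcr -0.021, Cox7c -0.025, Mmp24 -0.22, Psmd13 -0.12, Rps25 -0.12 and Th -0.045. Under the 75th percentile they were A_64_P095208 0.70, Dgat2l6 0.57, Tas2r110 0.97, Or13m2 0.92, Or2n1j 1.21, Or4x11 0.99, P2ry13 0.72, Cfp 0.39, Gabra3 0.45, Gnai1 0.10, Mbp 0.042, Mcf2l 0.33 and Slc5a7 0.24. Several of these signs came from the shift common to all genes. Relative to the median of all genes, Calcr, Cox7c, Psmd13, Rps25 and Th stayed positive under the median scaling (0.049 to 0.15), and Gnai1 (-0.23), Mbp (-0.28) and Slc5a7 (-0.087) stayed negative and Mcf2l was at 0.0066 under the 75th percentile. With probes well above background in all 8 samples, Mbp was 0.031 and Mcf2l 0.13, and with the processed signal at the same median Rps3a was 0.058 and Spp1 0.0097. C5ar1 was -0.019 without background correction, -0.095 with cyclic loess, -0.057 (without BYP replicate 4) to 0.062 with 1 sample left out, -0.047 without BYP replicates 3 and 4 and -0.036 without BYS replicates 1 and 2. Without BYS replicates 1 and 2, Cebpd was -0.060, Fos -0.17, Fosl1 -0.39, Junb -0.0012 and Tnf -0.16. Without BYP replicates 3 and 4, Ache was 0.24 and Tsc22d3 0.12. Psmd13 was -0.0066 without BYS replicates 3 and 4, and Spp1 was 1.81 without them and -1.19 to 0.62 with 1 sample left out, positive without BYS replicate 3 or 4. The causes were not tested. Of 2278 recomputed differences of named genes, 2082 kept their direction and their side of the threshold. Signal over background was lower in BYP, which limits the dim genes most.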

Other observations

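Spp1, the gene of osteopontin, a secreted protein of activated microglia and macrophages, was named after its values were seen. Its log2 level was 9.996, 10.80, 9.49 and 10.997 in BYP, 8.24 and 8.79 in BYS replicates 1 and 2, and 13.31 and 12.42 in BYS replicates 3 and 4, against 8.06 to 8.61 in the samples without spasms and 8.04 to 9.39 in BYA. All BYP values lay between those of the BYS arrays. With all 8 samples the difference was -0.37 (limma adjusted p = 0.957), without BYS replicates 1 and 2 it was -2.55 (adjusted p = 0.011) and without replicates 3 and 4 it was 1.81 (adjusted p = 0.0168), so that it was called in both directions. Fosl1, an AP-1 subunit, was at 9.88, 9.46, 11.61 and 10.16 in BYP and 7.39, 7.45, 10.73 and 10.61 in BYS, Ccl2, a monocyte chemokine, at 9.51 to 12.04 in BYP and 7.42, 7.54, 10.79 and 10.32 in BYS, and Cebpd, a transcription factor of the acute phase, at 12.84 to 14.72 in BYP and 11.33, 11.12, 13.96 and 13.48 in BYS. Leaving out BYS replicates 3 and 4, limma called Fosl1 (2.86, adjusted p = 0.00768) and Cebpd (2.43, adjusted p = 0.0477). Fosl1 and Ccl2 passed the filter on dim genes through BYP alone. Whether BYS replicates 1 and 2 differed from the others in spasms, timing or tissue sampled was not tested.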
